A study of Brassica oleracea var. italica with 48 samples.

Results

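The genes described here are 179 of the 60586 features measured in broccoli. They were chosen by their measured levels: on day 6 without potassium they stood higher in starved than in control roots, while on days 1 and 3 in roots, and on day 6 in leaves, starved and control levels lay close together. Levels are TPM, reads per length scaled to the same total of 1000000 in every library. With d for the log2(mean TPM + 1) of starved minus that of control libraries, a member had d of at least 1 in roots on day 6, its lowest starved root library above its highest control one, and an absolute d under 0.5 in roots on days 1 and 3 and in leaves on day 6. At least 1 of the 12 control root libraries also had to reach 1 TPM, which 30073 features did.

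All plants were wild-type broccoli (Brassica oleracea var. italica). They were grown for 6 days on MS plates and 7 days in hydroponics with 2 mM K2SO4, under days of 16 h light and 8 h dark. The starved plants were then kept in medium lacking potassium for 1, 3 or 6 days, and the control plants stayed in the supplied medium for the same times. Roots and leaves were sampled separately, which gave starved and control groups for each tissue and day, 12 groups of 4 libraries (a to d). The labels do not say whether these libraries came from separate plants, so p-values measure the spread between libraries alone, and that spread may be technical.

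Potassium is the main inorganic cation of plant cells, where it sustains turgor, the membrane potential and many enzymes. Roots take it up through channels and high-affinity transporters, and shortage is known to change uptake, signalling and growth of the root. The feature IDs of the deposited table matched none of the 53125 genes of the name table used here. Members are therefore given by ID with no gene name, role or sequence, and the marker genes of root and leaf were not analysed here.

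The conditions left features in steps. In roots on day 6, 1121 features had d of at least 1, 1040 of them without overlap between starved and control libraries, and 964 also met the control minimum. The bound on day 1 left 405 of the 964, the bound on day 3 left 193, and the bound in leaves left 179. Most of the 785 others were already higher in starved roots before day 6: of the 964, d was 0.5 or more in 503 on day 1 and in 613 on day 3, against -0.5 or less in 56 and 15. The leaf bound removed 14 features on its own.

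Library depth, as reads recovered from the TPM values, was 13819010 to 19735733 in roots (median 19.2, in units of 1000000 reads) and 18350942 to 20160203 in leaves (median 19.4). In limma's array weights 5 libraries had a weight under 0.2 and stood apart from their groups: root starved day 3 d, root control day 1 a, leaf starved day 1 d, leaf control day 1 b and leaf control day 3 a. None of them is a day 6 library. Without them the rule gave 199 features, 147 of them shared with the 179.

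The members together made up 6679 ± 501 TPM in starved roots on day 6, against 2561 ± 155 TPM in control roots (mean ± SD, n = 4 each). The 4 starved libraries lay between 6051 and 7112 TPM and the 4 control libraries between 2363 and 2729 TPM. On day 1 the sums were 3971 ± 530 TPM in starved and 3952 ± 272 TPM in control roots, and on day 3 they were 4228 ± 323 TPM in starved and 3908 ± 432 TPM in control roots. The 16 libraries of days 1 and 3 ranged from 3337 to 4731 TPM. The day 6 starved libraries were thus above all of these and the day 6 control libraries below all of them. In whole roots, fewer cells of a type that holds a transcript and less of that transcript per cell cannot be told apart. These sums follow from how the members were chosen and are given as a description.

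**Figure D1:**
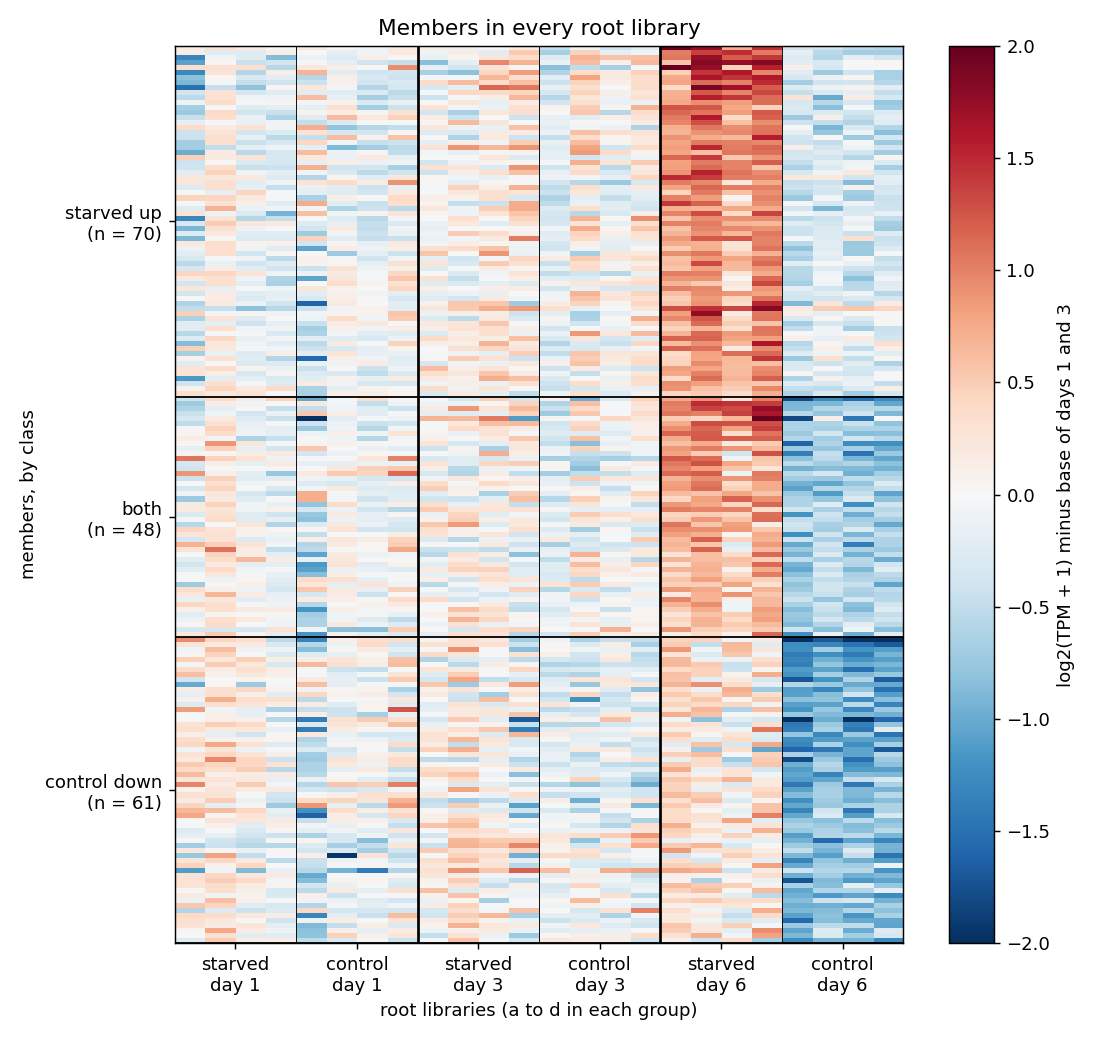
Each row is 1 of the 179 members and each column 1 of the 24 root libraries; colour is log2(TPM + 1) minus the member's base, the mean of the 4 root groups of days 1 and 3. Starved day 6 libraries are high in the classes starved up (70 members) and both (48), and control day 6 libraries are low in the classes both and control down (61).

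A day 6 difference can come from a higher starved level, a lower control level or both, and all 3 forms were present. The base of a member was the mean of its log2(mean TPM + 1) over the 4 root groups of days 1 and 3. Members were divided at 0.5 above and below it. In 70 members (39.1%) starved roots were at least 0.5 above the base and control roots were not 0.5 below it (class starved up). In 61 members control roots were at least 0.5 below the base and starved roots were not 0.5 above it (class control down). In 48 members (26.8%) both shifts were present (class both), and 0 members had neither. The description of these genes as raised late therefore holds by this division for the 70 and the 48 members of the classes starved up and both. In the other 61 the day 6 starved level was less than 0.5 above the base and the control level at least 0.5 below it. The base averages both treatments and both days, so a member need not follow this against each earlier group. Bo3g023110 of this class averaged 1.46 TPM in control roots on day 1 and 1.78 TPM on day 6.

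Among all 30073 features that met the control minimum, 3.31% were starved up, 10.5% control down, 1.33% both and 84.9% neither. Among the 785 other features higher in starved roots on day 6, 150 (19.1%) were starved up, 290 (36.9%) control down and 345 (43.9%) both. These shares partly follow from the choice of members and were not tested. The split also moved with the scaling of the libraries: after rescaling by medians of ratios, 101 members were starved up, 45 control down and 33 both. Rescaling shifted the median starved minus control difference of all root features by -0.10 on day 1, 0.03 on day 3 and -0.03 on day 6 (log2). These are shifts within a day. The classes rest on day 6 against the base of earlier days, and the shift of that difference was not computed.

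**Figure D2:**
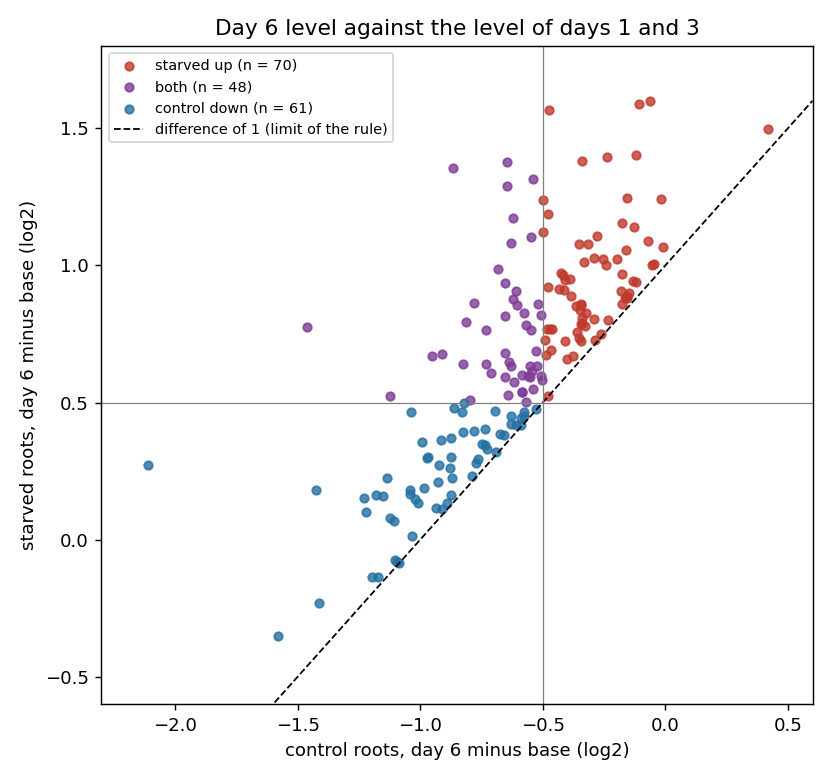
Each point is a member; the vertical axis is its starved and the horizontal axis its control root level on day 6, each minus the base of days 1 and 3 (log2). Grey lines mark the class bounds of 0.5 and -0.5, the dashed line the difference of 1 that the rule asks for; points run without a break from the 70 starved up members through the 48 of class both to the 61 control down.

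In the starved up class, the day 6 level minus the base had a median of 0.92 in starved roots (0.52 to 1.60) and of -0.33 in control roots (-0.50 to 0.42). The median level on day 6 was 13.7 TPM in starved and 5.44 TPM in control roots. In 29 of the 70, all 4 starved libraries of day 6 were above the 20 other root libraries. This held for 12 of the 48 in class both and for 0 of the 61 control down, for 62 of the 785 other features (7.90%) and for 0.595% of all features that met the control minimum. The rule used these libraries, so nothing is read from these counts.

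Bo6g106880 had the largest d in this class (2.04). Its levels on day 6 were 91.1, 73.7, 36.4 and 60.7 TPM in starved libraries a to d, against 16.0, 15.9, 14.6 and 14.16 TPM in the control libraries. The lowest starved library was above each of the 20 other root libraries, whose group means were 15.2 to 23.97 TPM. The starved libraries spread more (SD 23.1 TPM) than the control libraries (SD 0.916 TPM).

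Bo3g062070 came next (d of 1.74) at a level near the control minimum of the rule. On day 6 it had 3.05, 4.11, 4.54 and 3.07 TPM in starved roots, against 0.784, 0.377, 0.224 and 0.248 TPM in control roots. On day 6 the control library with the fewest reads held 2. On days 1 and 3 its group means were 0.930 ± 0.287 and 1.16 ± 0.504 TPM in starved roots, against 0.980 ± 0.214 and 0.900 ± 0.617 TPM in control roots (SD, n = 4 each). It was at 0 in all 24 leaf libraries.

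Bo3g012790 was the member of this class with the highest starved level. Starved roots on day 6 had 333, 394, 380 and 444 TPM, against 137, 166, 178 and 158 TPM in control roots. Before day 6 its starved mean was below its control mean: 160 ± 22.7 TPM in starved and 184 ± 15.6 TPM in control roots on day 1, and 180 ± 24.4 TPM in starved and 249 ± 54.7 TPM in control roots on day 3 (SD, n = 4 each). Its d of -0.47 on day 3 is close to the bound of the rule.

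In the control down class the order of the components was turned round. The day 6 level minus the base had a median of 0.27 in starved roots (-0.35 to 0.50), and 7 of the 61 were below the base there. In control roots the median was -0.91 (-2.108 to -0.53). The median level on day 6 was 7.06 TPM in starved and 2.90 TPM in control roots. In 31 of the 61, all 4 control libraries of day 6 were below the 20 other root libraries. This held for 6 of the 48 in class both, for 0 of the 70 starved up, for 195 of the 785 other features (24.8%) and for 1.32% of all features that met the control minimum. The rule and the classes used these libraries, so nothing is read from these counts either.

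**Figure D3:**
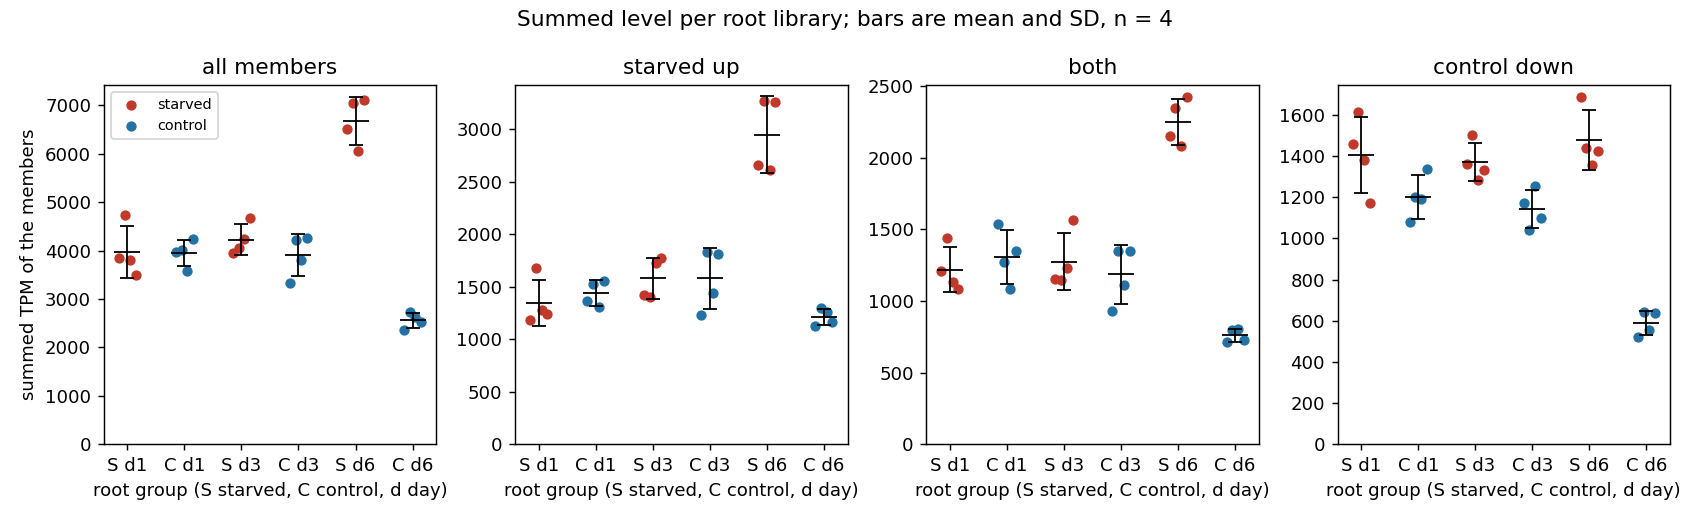
Points are the summed TPM of all members and of each class in each root library, by group (S starved, C control, d day), with mean and SD of 4 libraries. The control down sum stayed at 1371 to 1477 TPM in the 3 starved groups and was 590 TPM in control roots on day 6; the starved up sum was 2951 TPM in starved and 1212 TPM in control roots on day 6.

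The summed level of the control down class was 1407 ± 183 TPM on day 1, 1371 ± 93.1 TPM on day 3 and 1477 ± 145 TPM on day 6 in starved roots. In control roots it was 1202 ± 107 TPM on day 1, 1142 ± 93.2 TPM on day 3 and 589.5 ± 59.9 TPM on day 6 (n = 4, SD). The 3 starved groups overlapped, and the day 6 control libraries were below all other root libraries. Within the bounds of the rule, d was above 0 in 46 of 61 members of this class on day 1 and in 51 of 61 on day 3. The counts were 33 and 42 of 70 in the starved up class and 33 and 30 of 48 in class both. Among all features that met the minimum, d was above 0 in 61.6% on day 1 and 45.2% on day 3. The rule and the classes used these values, and the counts are a description.

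Bo7g092700 had the largest d of all members (2.38) and belonged to this class. On day 6 it had 43.8, 44.3, 30.5 and 35.7 TPM in starved roots, against 5.004, 9.21, 5.25 and 6.95 TPM in control roots. Earlier it averaged 41.7 ± 16.5 TPM in starved and 31.97 ± 13.6 TPM in control roots on day 1, and 32.3 ± 8.97 TPM in starved and 23.7 ± 4.09 TPM in control roots on day 3 (SD, n = 4 each). The starved level of day 6 lay within its earlier range, and all 4 control libraries of day 6 were below the 20 other root libraries. The lowest earlier library was 12.03 TPM, in control day 1 a, 1 of the libraries that stood apart.

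Bo9g165360 was the next of this class (d of 1.61). On day 6 it had 5.24, 2.1, 5.85 and 2.73 TPM in starved roots, against 0.859, 0.748, 0.571 and 0.370 TPM in control roots. Its starved group means were 3.73, 3.90 and 3.98 TPM on days 1, 3 and 6, while its control group means were 3.06, 2.95 and 0.637 TPM. The difference thus lay in the control libraries of day 6.

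Members of class both had the largest median d (1.36, against 1.21 for starved up and 1.14 for control down). As d is the starved shift minus the control shift and this class asks for both, that order partly follows from the division. Bo2g030230 had 249.6, 342, 329.7 and 319 TPM in starved roots on day 6, against 63.7, 64.5, 76.5 and 58.0 TPM in control roots. On days 1 and 3 its means were 110.3 ± 25.7 and 129 ± 24.7 TPM in starved roots, against 113 ± 21.3 and 132 ± 44.3 TPM in control roots (SD, n = 4 each). The starved and control means of those days differed by less than 1 SD, and on day 6 they moved to opposite sides of them.

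Bo3g037610 had the highest starved level of all members. It had 491, 458, 277 and 432 TPM in starved roots on day 6, against 165, 210.1, 176 and 190.2 TPM in control roots. Here the day 6 groups were separate, but the earlier libraries (182 to 394 TPM) reached into both. Starved library c, at 277 TPM, lay within the earlier range.

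Bo5g023910 (d of 2.24) and Bo00898s050 (d of 1.59) had the widest gap on day 6, taken as the lowest starved over the highest control value. Bo5g023910 had 5.16, 5.77, 3.37 and 6.29 TPM in starved roots, against 0.0382, 0.471, 0.229 and 0.466 TPM in control roots. Bo00898s050 had 2.98, 2.55, 1.97 and 1.39 TPM in starved roots, against 0.0469, 0.105, 0.0935 and 0.0520 TPM in control roots. The lowest control value rested on 1 read for Bo5g023910 and on 2 reads for Bo00898s050. On days 1 and 3 both features were present in starved and control roots, with group means of 2.38 to 3.09 TPM for Bo5g023910 and 0.852 to 1.52 TPM for Bo00898s050.

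**Figure D4:**
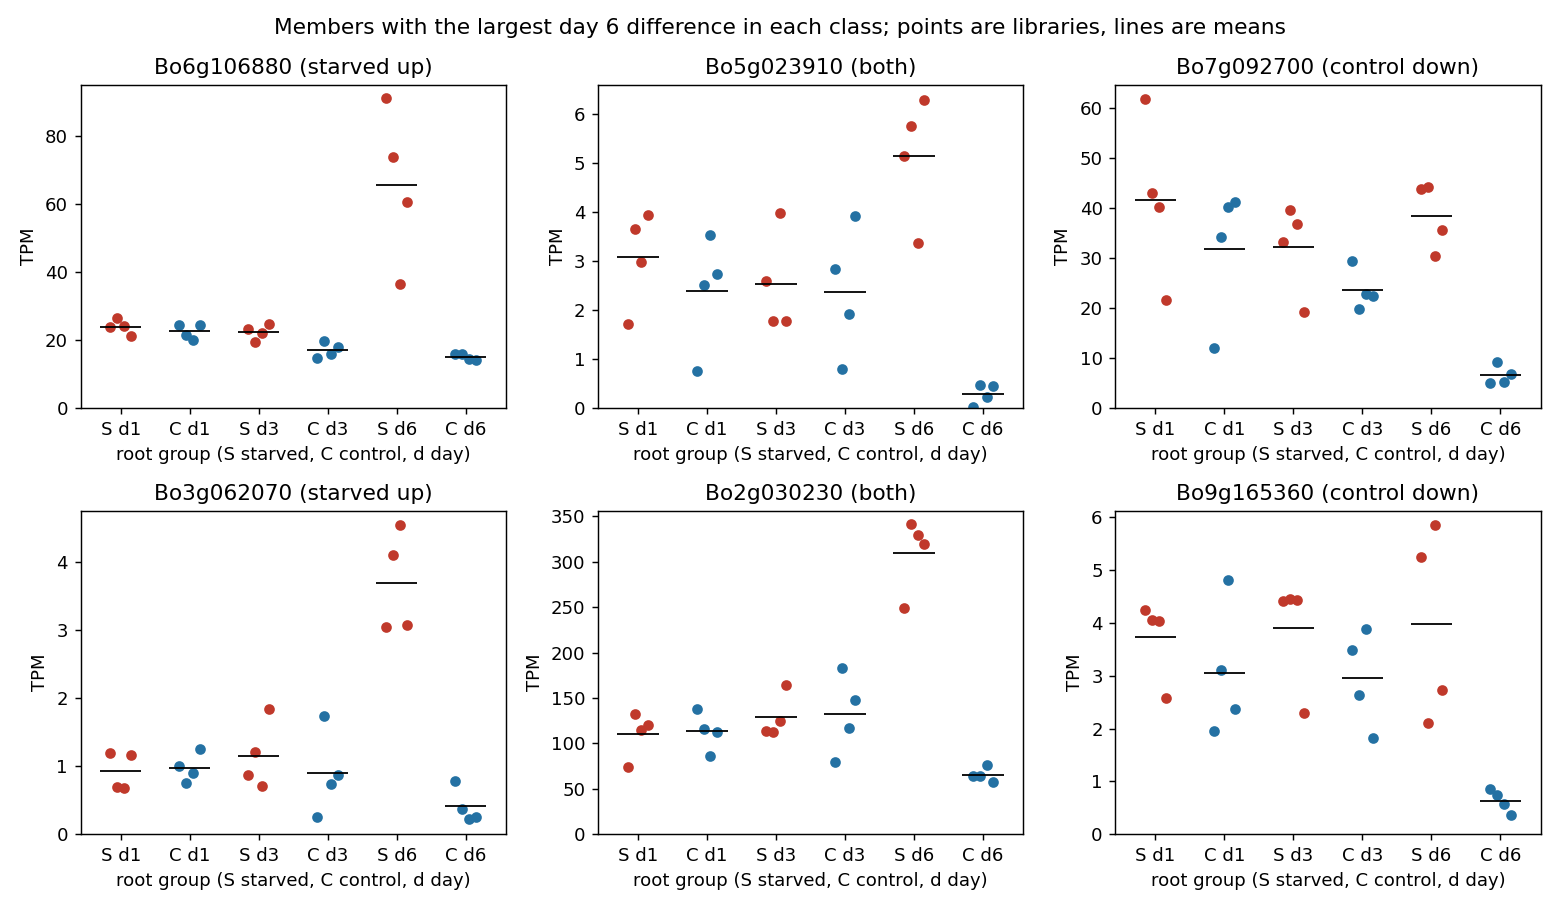
TPM of the 2 members with the largest day 6 difference in each class (starved up left, both middle, control down right) in every root library, by group; lines are means of 4 libraries. Bo6g106880 is at 36.4 to 91.1 TPM in starved and 14.16 to 16.0 TPM in control roots on day 6, whereas Bo7g092700 is at 30.5 to 44.3 TPM in starved roots, near its earlier level, and at 5.004 to 9.21 TPM in control roots.

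Over all members d on day 6 had a median of 1.20 and reached 2.38, and the middle 50% of members lay between 1.08 and 1.36. The group means differed by a median fold of 2.76. On days 1 and 3 the median d was 0.12 and 0.21 in the members, against 0.67 and 0.81 in the 785 other features, whose median d on day 6 was 1.51. The rule bounds d on days 1 and 3 in the members only, so this contrast largely follows from the choice. Nearest inside the limit were Bo8g051410 and Bo4g061340, both with d of 1.00. Bo8g051410 had 12.7, 8.57, 15.4 and 6.83 TPM in starved roots on day 6, against 4.35, 5.59, 5.61 and 4.21 TPM in control roots. Nearest outside it, at a d just under 1, were Bo7g058300 and Bo8g103030. Bo8g103030 had 16.4, 15.2, 12.1 and 15.3 TPM in starved roots, against 8.67, 6.44, 6.23 and 6.20 TPM in control roots. Its lowest starved value was 1.40 times its highest control value, against 1.22 times in Bo8g051410. In this pair the feature just outside the limit was thus no less separated than the one just inside it.

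Among the 4 starved libraries of day 6, library c was the lowest in 84 of the 179 members (46.9%) and library d the highest in 65 (36.3%). Over all features that met the control minimum these shares were 39.0% and 43.4%, so this order of the libraries was a general one. Leaving out starved library c, the rule gave 209 features, and 49 of the members were control down and 60 were in class both. The 10 members with the highest starved level held 43.5% of the summed TPM of starved roots on day 6, and the highest alone held 6.20%. In 94 members the control mean of day 6 was under 5 TPM, and in 30 it was under 1 TPM, where the added 1 TPM makes d smaller than the log2 ratio of the levels.

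Limma called 177 of the 179 members higher in starved roots on day 6 at a Benjamini-Hochberg adjusted p under 0.05, where it called 9.00% of the 29422 features tested higher. The rule used this contrast, so nothing is read from that count. The 2 members not called were ENSRNA049451135 and Bo2g093090 (limma adjusted p of 0.0836 and 0.0543).

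On the other contrasts of the rule, given as a description since it kept such differences small, limma called few members. In roots on day 1 it called 1 member higher and 0 lower, against 4.15% of features called higher and 4.25% called lower. In roots on day 3 it again called 1 higher and 0 lower, against 4.0% of features called higher and 3.69% called lower. On both days this was Bo1g128360, with log2 fold changes of 0.45 and 0.47 (limma adjusted p of 0.0465 and 0.0403). The rule used both contrasts, so nothing is read from these calls. In leaves on day 6 limma called 0 of 62 members higher and 1 lower, against 3.53% of features called higher and 1.76% called lower. That member was Bo6g124540, with a log2 fold change of -0.50 (limma adjusted p = 0.0429).

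Most members were barely detected in leaves. Of the 179, 111 were under 1 TPM in all 24 leaf libraries (silent), 14 had a leaf mean under 1 TPM otherwise (low) and 54 had a leaf mean of at least 1 TPM (present). Silent features were 62.0% of the members, 54.3% of the 785 other features and 18.6% of all features that met the root minimum. Under 1 TPM the added 1 TPM keeps d small, so the silent members meet the condition in leaves easily, whether or not their low levels differ. On day 6, 51 members had a mean of at least 1 TPM in leaves. The classes differed in this: 54 of 70 starved up members were silent in leaves (77.1%), against 27 of 48 in class both (56.2%) and 30 of 61 control down (49.2%). This is a description and was not tested.

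**Figure D5:**
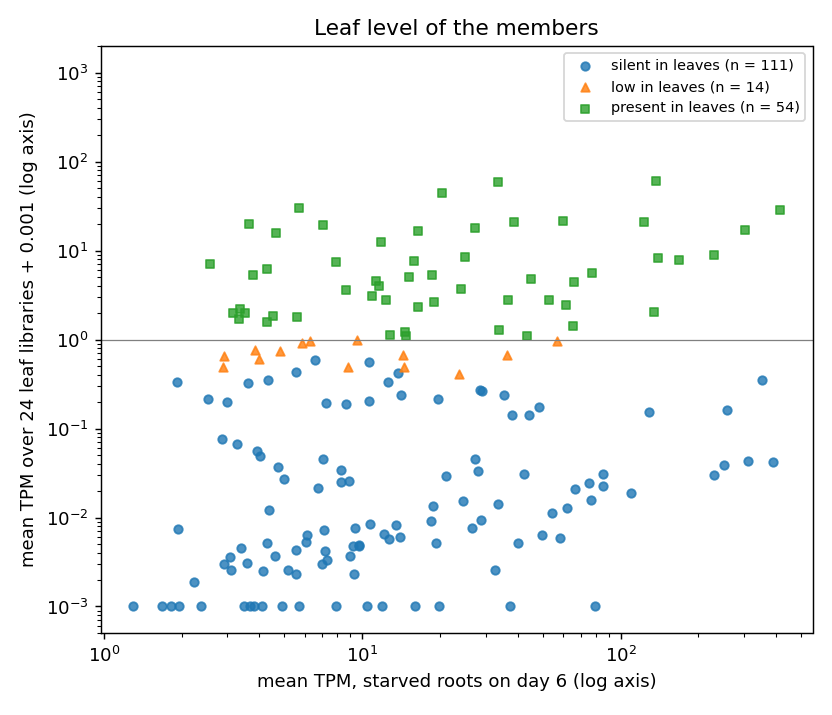
Each point is a member, with its mean TPM in starved roots on day 6 on the horizontal log axis and its mean TPM over 24 leaf libraries, with 0.001 added, on the vertical log axis; the grey line is 1 TPM. Of the 179 members, 111 are silent, 14 low and 54 present in leaves, and members with over 100 TPM in roots occur both among the silent and among the present.

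Among the silent members, Bo8g108460 and Bo1g011510 had the highest leaf control means, 0.602 and 0.579 TPM. In roots on day 6 Bo8g108460 had 7.05, 9.96, 12.6 and 12.8 TPM under starvation, against 4.34, 4.86, 4.88 and 4.36 TPM in controls. Bo1g011510 had 5.62, 7.00, 6.17 and 7.35 TPM in starved roots on day 6, against 2.106, 2.86, 2.43 and 2.31 TPM in control roots. Both belonged to the starved up class. The highest leaf control means of the low class were those of Bo5g150300 (1.08 TPM) and Bo6g120450 (1.00 TPM).

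Bo9g149860 and Bo8g108330 had the highest leaf control means of the members present in leaves. Bo9g149860 averaged 78.4 ± 11.3 TPM in starved and 119 ± 80.0 TPM in control leaves on day 1, where control library d alone reached 227 TPM. In roots on day 6 it had 162, 169, 91.4 and 127 TPM under starvation, against 55.8, 58.0, 42.4 and 57.7 TPM in controls. In leaves on day 6 it had 31.0, 27.9, 17.0 and 34.6 TPM under starvation, against 19.9, 22.3, 39.5 and 38.4 TPM in controls. The leaf groups overlapped, while the root groups did not.

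Bo8g108330 averaged 53.3 ± 15.7 TPM in starved and 58.8 ± 13.3 TPM in control leaves on day 1, and 49.0 ± 3.81 TPM in starved and 66.4 ± 13.2 TPM in control leaves on day 6 (SD, n = 4 each). Its leaf means were below those of Bo9g149860 on day 1 and above them on day 6. On day 6 its roots had 39.4, 23.4, 38.0 and 33.8 TPM under starvation, against 10.5, 19.6, 16.2 and 17.3 TPM in controls. Both Bo9g149860 and Bo8g108330 belonged to the control down class. Of the 54 members present in leaves, 23 were control down, 18 in class both and 13 starved up.

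Leaves of days 1 and 3 were not used in the choice of members and could be tested. Of the 179 members, 62 had at least 1 TPM in at least 4 leaf libraries. On day 1 limma called 0 of the 62 between starved and control leaves (lowest adjusted p 0.986, and 0 with an unadjusted p under 0.05, against 627 of 25098 features), against 0% of 25098 features called higher and 0% called lower. Their log2 fold changes ran from -0.42 to 0.29 with a median of -0.11, and the median of all features was -0.10. The limma voom fit on recovered reads also called 0 members.

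On day 3 limma again called 0 of the 62 members between starved and control leaves (lowest adjusted p 0.364, and 6 with an unadjusted p under 0.05, against 1153 of 25098 features), against 0.0478% of features called higher and 0.00797% called lower. The members' median log2 fold change was 0.10, from -0.81 to 1.09, and the median of all features was 0.06. The limma voom fit called 0 members as well. With array weights 4 members were called, among 261 features higher and 86 lower of 25098. Without leaf starved day 3 a, 1 was called, among 69 higher and 2 lower of 25067. With the letters as a replicate block, 0 members were called, among 40 higher and 2 lower of 25098. The ends of the range, chosen after their values were seen, were Bo4g025670 with 1.09 ± 0.32 (SE, limma adjusted p = 0.406) and Bo8g075040 with -0.81 ± 0.23 (SE, limma adjusted p = 0.364). So few features of any kind passed in leaves on these days that the members' counts of 0 do not set them apart.

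The summed leaf level of the members was 547 ± 100.1 TPM in starved and 629 ± 142 TPM in control leaves on day 1, and 657 ± 102 TPM in starved and 576 ± 72.5 TPM in control leaves on day 3 (n = 4, SD). Starved leaves of day 6 had 489 ± 62.9 TPM and control leaves 534 ± 27.2 TPM. The starved and control ranges overlapped on each day.

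Change with time in control leaves was the next comparison the rule did not use. Between day 3 and day 1 limma called 3 of the 62 members higher and 0 lower, against 0.889% of features called higher and 0.402% called lower. The largest was Bo3g066910, which had 18.4 to 22.9 TPM in control leaves of day 3, against 6.96 to 11.9 TPM on day 1. The groups did not overlap, with a log2 fold change of 1.08 ± 0.21 (SE, limma adjusted p = 0.0105). In starved leaves the same feature had 18.5 to 32.2 TPM on day 3 and 5.43 to 11.1 TPM on day 1. The other called members, Bo7g033190 and Bo8g066920, had log2 fold changes of 0.72 and 0.66. The count was 1 without leaf control day 1 b, day 3 a or day 3 c, and 0 when only the groups of the contrast were fitted, where Bo3g066910 had a limma adjusted p of 0.0502.

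In roots, the mean of starved and control levels on day 3 was compared with that on day 1, a contrast the rule did not read. Limma called 9 of the 179 members higher on day 3 and 6 lower, against 2.22% of 29422 features called higher and 2.04% called lower. The median log2 fold change was 0.07 in the members and 0.01 in all features. By class the calls were 5 higher and 1 lower of 70 starved up members, 3 higher and 4 lower of 61 control down, and 1 higher and 1 lower of 48 in class both. In the starved up class 52 of 70 members were above 0, with a median of 0.21, and in the control down class 27 of 61, with a median of -0.04. Of all 29422 features tested, 15634 were above 0.

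The largest rise was that of Bo3g023110, a feature of 156 bases. Its day 3 levels were 4.44, 7.16, 5.35 and 8.98 TPM in starved and 5.75, 3.14, 6.25 and 6.68 TPM in control roots, and its day 1 levels were 1.01, 3.15, 1.37 and 2.94 TPM in starved and 1.99, 1.27, 0.651 and 1.92 TPM in control roots. The log2 fold change between the days was 1.34 ± 0.21 (SE, limma adjusted p = 0.000646). On day 6 it had 6.498, 6.14, 2.31 and 3.90 TPM in starved and 2.28, 1.91, 1.99 and 0.946 TPM in control roots. The starved mean of day 6 (4.71 TPM) thus lay between those of day 1 (2.12 TPM) and day 3 (6.48 TPM). The control mean of day 6 (1.78 TPM) was near that of day 1 (1.46 TPM).

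The largest fall was that of Bo7g057800, with a log2 fold change of -0.85 ± 0.19 (SE, limma adjusted p = 0.0130). Its day 3 levels were 2.02 ± 0.390 TPM in starved and 1.18 ± 0.343 TPM in control roots, and its day 1 levels were 3.84 ± 1.57 TPM in starved and 3.89 ± 1.93 TPM in control roots (SD, n = 4 each). On day 6 it had 3.79, 2.84, 1.88 and 3.01 TPM in starved and 0.310, 1.13, 0.309 and 1.29 TPM in control roots. Without root starved day 1 a, 8 members were called between the days in place of 15.

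Length and ID form are given as a description. The length recovered with the reads had a median of 918 bases in the members (124 to 3876), 870 bases in the other 785 and 1023 bases in all features that met the minimum. By the digit of the ID, members came from all 9 numbered series. The largest share was that of Bo2, with 27 members (15.1%, against 9.21% of features that met the minimum), and the smallest that of Bo9, with 14 (7.82%, against 11.7%). Members side by side in the order of IDs were counted with no background count, so nothing is read from their number. Among 174 members with a numbered ID, 1 pair was adjacent, Bo5g139410 and Bo5g139420, and 2 pairs were separated by 1 other feature.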

How the data were processed

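Per the labels' protocols, root and leaf RNA was purified on columns with DNase treatment, and libraries were read on a DNBseq machine. Per the submitters' processing notes, FastQC 0.11.9, cutadapt 4.1, STAR 2.7.10a and DESeq2 are named without a stated role. The build, the annotation and the counter were not given in the sources used here. Deposited by the authors was TPM for 60586 features in 48 libraries, each summing to 1000000, so a value depends on the rest of its library. Reads were recovered as whole multiples of each feature's smallest step, for 44911 of the 44911 features above 0 in at least 2 libraries. The largest deviation from a whole number was 0.000969 reads. These reads gave depths and lengths. No pair of libraries in a group agreed within sampling noise.

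Members and lists were chosen with earlier results of these data known. Tests used limma 3.58.1 in R 4.3.3 (lmFit, eBayes with trend) on log2(TPM + 1), which understates changes of low features. Each tissue was fitted over its 24 libraries, for features that reached 1 TPM in 4 or more of them, with Benjamini-Hochberg adjustment over all of them and a call at 0.05. The procedure was tested on simulated data, with the same spread for every feature and changes only in features with many reads. That test does not cover changes in features with few reads. For contrasts used by the rule, limma calls are given as a description and support nothing. The root comparison of days 3 and 1, and its named features, were added after seeing the data. Named features are up to 2 per set: largest d, highest starved level, largest d per class, highest leaf control mean per leaf class, largest called rise and fall, nearest the limit, and widest gap.

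Whether letters a to d pair the libraries was checked from the correlations of deviations from group means. In leaves on day 3 all 4 correlations of starved with control libraries of the same letter were over 0.1 (0.215 to 0.696). Starved libraries a and c correlated best with the control library of their own letter, but b and d with that of another. Neither the data nor the labels thus settle whether the letters pair the libraries there. The main fit has no block, and the blocked counts of leaves on day 3 stand beside it. In the other comparisons at least 1 correlation was not over 0.1. Alternatives were a pseudocount of 0.1, no filter, only the groups of a contrast, a replicate block, rescaling by medians of ratios, array weights, voom on recovered reads, other bounds, and leaving out each library or the 5 of low weight. Python 3.11.15 with numpy 2.4.6, pandas 2.3.3 and matplotlib 3.10.9 was used.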

Additional observations from a re-analysis of the deposited data

Results flagged for a closer look

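Root levels of the named features, and the summed level of the members in the 12 groups, were searched for a single library far from the other 3 of its group. Of the 144 groups of values searched, 7 held one, each in a named feature. Chance gives about 5% of groups. Bo9g165360 was lowest in library d of starved roots on day 1 (2.58 TPM) and of starved roots on day 3 (2.29 TPM), where library d also had a low array weight. Bo8g108460 was highest in control roots on day 1 in library b (6.55 TPM). Bo9g149860 was lowest in control roots on day 6 in library c (42.4 TPM). Bo3g066910 was lowest in starved roots on day 3 in library a (2.54 TPM). Bo7g058300, just outside the limit on d, was highest in control roots on day 1 in library d (1.93 TPM), and Bo8g103030, also just outside it, was highest in control roots on day 6 in library a (8.67 TPM).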

How the results depend on the processing

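The number of members was 29 with a d of at least 1.5, 50 with bounds of 0.3 in place of 0.5, and 51 when a leaf mean of at least 1 TPM on day 6 was required. It was 170 with a pseudocount of 0.1, of which 107 were among the 179, and 164 to 209 when each library was left out in turn, with 149 to 178 shared. With a class bound of 0.3 the classes starved up, control down and both held 32, 34 and 113 members; with 0.7 class both held 5 and 36 members had neither shift. Leaving out each root library in turn gave 64 to 73 starved up, 49 to 64 control down, 45 to 60 in both and 0 to 4 in neither. In leaves on day 1 every alternative run gave 0 called members. In leaves on day 3 array weights gave 4 and leaving out a library 0 to 1. In control leaves between day 3 and day 1, only the groups of the contrast gave 0, array weights 11 (among 1538 higher and 1065 lower of 25098 features), the removal of low-weight libraries 1, and leaving out a library 1 to 3. In roots between day 3 and day 1 array weights gave 45 of 179 (among 2814 higher and 3458 lower of 29422 features) and leaving out a library 8 to 20. With a replicate block 0 members were called in leaves on days 1 and 3, 2 in control leaves and 21 in roots between the days. The cause of these shifts was not tested. The d of the named features kept its sign in every alternative run. They were chosen without overlap on day 6, so this was nearly fixed in advance and supports nothing. Leaving out a day 6 root library took d as low as 0.804 in Bo8g051410 and 0.875 in Bo4g061340, under the limit of 1. Levels of 1 to 7 reads limit the day 6 values of Bo5g023910, Bo00898s050, Bo3g062070, Bo3g023110, Bo7g057800 and Bo9g165360.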
